A study of Mus musculus with 6 samples.

Results

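A set of 6 genes used as markers of mesothelium was followed across 6 arrays of dissected mouse airway: Msln, Gpm6a, Lrrn4, Wt1, Bnc1 and Calb2. They were taken from the deposited table as the probe sets whose platform annotation gives exactly 1 symbol, using the row with the highest mean where a gene had several. All 6 were found, each with 1 row, among 19938 genes. The question was whether Msln, which earlier results of these arrays had shown to be lower in mutants, was lower together with or apart from the other mesothelial genes. The members were chosen by their use as mesothelial markers, and Msln was also selected on its lower values in the same 3 mutant and 3 control arrays. Its values are therefore given as a description and support nothing further.

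The arrays measured RNA of larger proximal airways, dissected under a microscope with forceps and scissors from stained sections of frozen lungs. The mice were 9 weeks old and of a mixed strain (C57BL/6 and 129X1). All 6 arrays came from mice with the Scgb1a1-Cre driver, which acts in the secretory club cells that line airways. There were 3 control arrays with the driver alone and 3 mutant arrays in which it also acted on Foxp1flox/flox and Foxp4flox/flox alleles of both forkhead genes. The labels do not say whether each array is a separate mouse.

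Mesothelium is the single layer of flat cells that lines the pleura, pericardium and peritoneum and covers the lung. Its cells derive from mesoderm but carry keratins, and they secrete lubricants and glycoproteins that let the lung slide. Msln encodes mesothelin, a glycoprotein held on the cell surface by a lipid (GPI) anchor. Its precursor is cut by furin into a soluble part and the anchored part, and the anchored part binds Muc16, the large mucin known as the tumour antigen CA125. Wt1 encodes a zinc finger transcription factor of the mesothelium and the developing kidney and gonad.

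Arrays resembled each other closely over all genes, with Pearson correlations between 0.972 and 0.993. Controls 2 and 3 stood apart from the other 4 on the main axis of variation (scores of 38.4 and 29.4 against -23.0 to -11.3 for control 1 and the mutants). Both floxed genes read lower on the mutant arrays than on any control, with a log2 difference of -0.23 for Foxp1 and -0.69 for Foxp4, and neither passed limma's test (adjusted p = 0.444 and 0.339). Scgb1a1, the club cell secretoglobin gene, read between 12.13 and 12.58 on all 6 arrays, among the highest values of the airway tissue named in the labels. The table holds no detection calls, so no gene is called present or absent here. In dissected tissue, fewer cells of a type and less RNA per cell cannot be told apart. Which cells of the airway tissue carried Msln or any other member was not tested.

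Msln read 9.97, 10.89 and 10.15 (log2 expression) in controls 1 to 3 and 8.85, 7.53 and 7.48 in mutants 1 to 3. All 3 mutant arrays lay below all 3 control arrays, and mutant 1 lay closer to the controls than the other two mutants did. The means were 10.34 ± 0.49 (SD, n = 3) in controls and 7.95 ± 0.77 in mutants, a log2 difference of -2.38 (SE 0.42, 95% interval -3.39 to -1.37), which is 5.21-fold lower in mutants. The adjusted p of limma over all genes was 0.122 and did not pass the threshold of 0.05. In the same test 53 of 19938 genes passed, or 0.266%, of which 6 fell (0.0301% of all genes) and 47 rose (0.236%). The mutants of 5.64% of all genes lay below every control, and 15 genes (0.0752%) had a difference as low as that of Msln or lower. When 1 control was left out, the count of 53 became 388 (control 1), 9 (control 2) or 10 (control 3), and when 1 mutant was left out it became 16 (mutant 1), 24 (mutant 2) or 15 (mutant 3). Msln itself passed only with array weights (log2 difference -2.42, adjusted p = 0.0405). Those weights ran from 0.484 for mutant 2 to 2.379 for control 3. Over the 16 alternative settings the difference of Msln lay between -2.83 and -2.01. Where more than 1 array was left in each group, its adjusted p in limma lay between 0.0405 and 0.433.

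**Figure D1:**
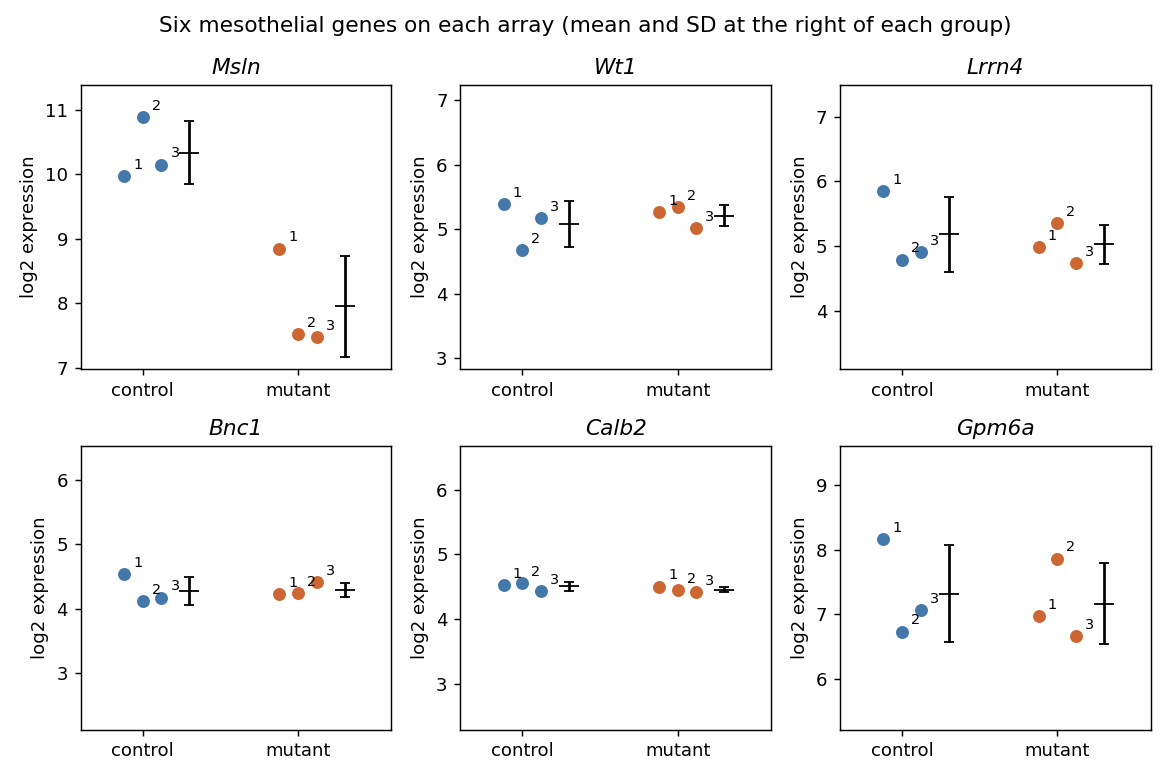
Log2 expression of each of the 6 genes on the 3 control arrays (blue) and 3 mutant arrays (orange), numbered by replicate, with the group mean and SD in black; every panel spans the same number of log2 units. Msln is the gene whose groups do not overlap: its mutants lie between 7.48 and 8.85 and its controls between 9.97 and 10.89.

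The other 5 genes gave overlapping groups, and none passed the test. Gpm6a, a membrane glycoprotein of neurons that mesothelial cells also carry, read 8.16, 6.73 and 7.06 in controls and 6.97, 7.86 and 6.66 in mutants. Control 1 and mutant 2 were high and the other 4 arrays lay below them, so its spread ran within groups and not between them. Its log2 difference was -0.15 (SE 0.445, 95% interval -1.22 to 0.92, adjusted p = 0.956). Lrrn4, a leucine-rich repeat membrane protein and mesothelial marker, read 5.85, 4.79 and 4.90 in controls and 4.98, 5.35 and 4.74 in mutants. Control 1 and mutant 2 were again the highest, and the difference was -0.16 (SE 0.306, interval -0.89 to 0.58, adjusted p = 0.928).

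Among the transcription factor genes, Wt1 read 5.39, 4.68 and 5.17 in controls and 5.27, 5.34 and 5.02 in mutants. Control 2 was the lowest array and the other 5 lay close together, with a log2 difference of 0.13 (SE 0.194, interval -0.34 to 0.60, adjusted p = 0.898). Bnc1, which encodes the zinc finger protein basonuclin 1 of mesothelium and of stratified epithelia, read 4.53, 4.12 and 4.17 against 4.22, 4.24 and 4.41 (difference 0.02, interval -0.30 to 0.33, adjusted p = 0.981). Calb2, which encodes the calcium-binding protein calretinin and is a marker of mesothelium and of some neurons, read 4.53, 4.55 and 4.43 against 4.50, 4.45 and 4.42 (difference -0.04, interval -0.23 to 0.14, adjusted p = 0.919). Both Bnc1 and Calb2 read near the arrays' lower quartile (4.42 to 4.50), where this kind of summary compresses differences. The antisense transcript Wt1os read 4.82, 4.65 and 4.64 in controls and 4.57, 4.49 and 4.4 in mutants, also at that level (difference -0.22, adjusted p = 0.502).

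The 95% intervals of these 5 genes all spanned 0, and their lowest bound was -1.22, that of Gpm6a. Counted as a set, 0 of the 6 genes passed limma's adjusted test, 1 of them (Msln) had an unadjusted p under 0.05, as did 10.1% of all genes, and 2 had differences above 0. The median log2 difference was -0.10 over the 6 genes and -0.04 over the 5 without Msln, beside 0.02 over all genes. The value of -0.04 was that of Calb2. By mean expression Msln stood at percentile 89.3 of all genes and Gpm6a at 60.6. Wt1 (29.3), Lrrn4 (28.6), Calb2 (17.3) and Bnc1 (12.8) stood far lower, where a fall as large as that of Msln had less room to show.

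Taken per array, the mean of the other 5 genes was 5.69, 4.98 and 5.15 in controls and 5.19, 5.45 and 5.05 in mutants, so the groups overlapped and control 1 was the highest. Msln minus that mean was 4.27, 5.92 and 5.0 in controls and 3.66, 2.09 and 2.43 in mutants. The group means were 5.07 ± 0.82 (SD, n = 3) and 2.72 ± 0.83, a difference of -2.34 log2 units. As the mean of the other 5 differed by only -0.04, this contrast restates the difference for which Msln was chosen and is no separate evidence. The mean of Upk3b, Wt1 and Lrrn4, defining markers of mesothelium, was 5.48 ± 0.60 in controls and 5.40 ± 0.37 in mutants. With control 1 as the lone control, assumed to vary like the mutants, Msln minus the other 5 differed by -1.55, and without control 1 and mutant 2 it differed by -2.42.

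**Figure D2:**
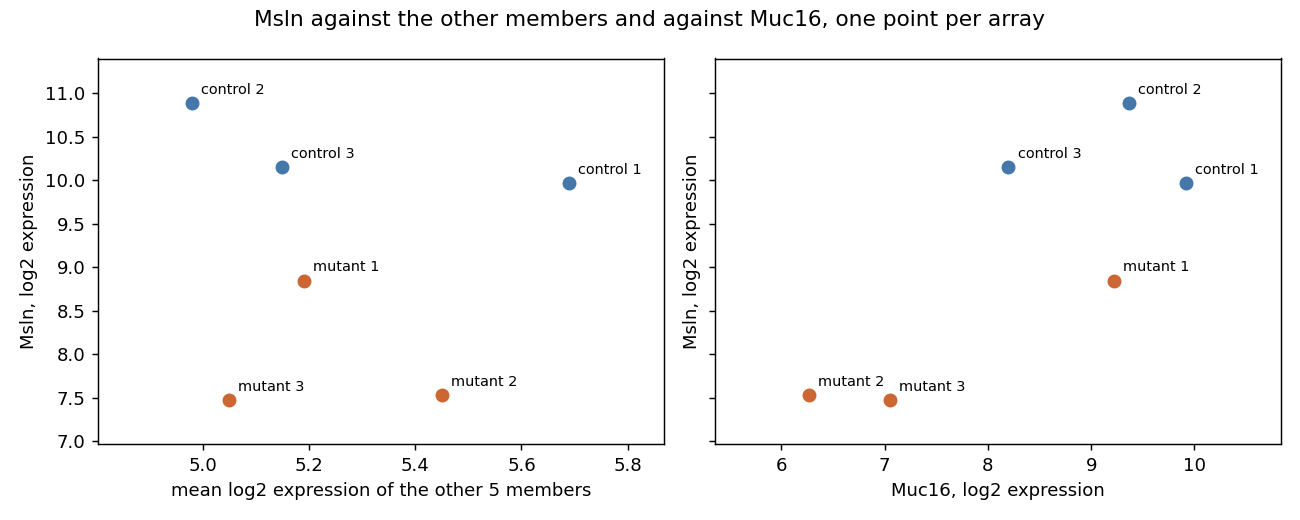
Log2 expression of Msln on each array (vertical) against the mean of the other 5 members (left) and against Muc16 (right), with controls in blue and mutants in orange. On the left the mutants span 5.05 to 5.45 and lie within the control range of 4.98 to 5.69, while their Msln values are all below those of the controls; on the right mutants 2 and 3 are low for both genes.

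Across the 6 arrays some of the other mesothelial genes varied alike and others did not. Lrrn4 and Gpm6a had a Pearson correlation of 0.97 over the 6 arrays, Lrrn4 and Upk3b 0.90, Lrrn4 and Aldh1a2 0.91, Lrrn4 and Rspo1 0.80, and Gpm6a and Wt1 0.76. The correlation was lower for Gpm6a and Calb2 (0.19), Bnc1 and Calb2 (-0.02), Wt1 and Calb2 (-0.23) and Lrrn4 and Upk1b (0.01). That of Msln was 0.63 with Calb2, 0.48 with Rspo1, 0.16 with Upk3b, 0.04 with Lrrn4, -0.06 with Gpm6a, -0.29 with Bnc1 and -0.39 with Wt1. Such values include the group difference for which Msln was chosen. With each group's mean taken off they became, in the same order, 0.62, -0.58, 0.03, -0.37, -0.46, -0.58 and -0.37. Calb2 spanned only 4.42 to 4.55 over the arrays. These are descriptions over 6 arrays that share their normalisation, with no test. Control 1 was the highest array for 4 of the 6 members (Wt1, Lrrn4, Bnc1 and Gpm6a) and for 6 of 9 genes of a narrow list of other mesothelial genes, as it was for 20.3% of all genes.

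The regions before a start site of Lrrn4, Gpm6a, Upk3b and Rspo1 are shown as examples of genes that varied alike on the arrays. The Pearson correlations of their pairs ran from 0.63 (Upk3b and Rspo1) to 0.97 (Lrrn4 and Gpm6a). Nkain4 (0.86) and Aldh1a2 (0.91) varied more like Lrrn4 than Rspo1 (0.80) did, but their regions were not searched. RefSeq (GRCm38.p6) entries were found for 3 of the 6 members (Lrrn4, Bnc1 and Gpm6a), for Upk3b and for Rspo1. Each window holds the 250 bases upstream of a start, 5′ to 3′ on the gene's strand: chr2:132880863-132881112 on the minus strand for Lrrn4, chr8:54779184-54779433 on the plus strand for the more upstream of the 2 Gpm6a entries, chr5:136038246-136038495 on the plus strand for Upk3b and chr4:124986180-124986429 on the plus strand for Rspo1. Capitals mark GGAATG or its reverse complement CATTCC, the core bound by TEAD factors of the Hippo pathway, which was looked for after the sequences had been read.

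Lrrn4: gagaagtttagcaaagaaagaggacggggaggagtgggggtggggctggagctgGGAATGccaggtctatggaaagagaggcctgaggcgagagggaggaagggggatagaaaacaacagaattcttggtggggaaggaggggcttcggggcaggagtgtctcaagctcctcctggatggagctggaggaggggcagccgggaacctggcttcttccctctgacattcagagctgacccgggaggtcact
Gpm6a: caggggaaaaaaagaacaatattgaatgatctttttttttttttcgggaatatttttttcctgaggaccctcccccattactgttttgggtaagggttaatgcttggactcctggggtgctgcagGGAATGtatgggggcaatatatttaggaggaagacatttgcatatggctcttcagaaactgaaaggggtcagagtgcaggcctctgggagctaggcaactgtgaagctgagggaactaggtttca
Upk3b: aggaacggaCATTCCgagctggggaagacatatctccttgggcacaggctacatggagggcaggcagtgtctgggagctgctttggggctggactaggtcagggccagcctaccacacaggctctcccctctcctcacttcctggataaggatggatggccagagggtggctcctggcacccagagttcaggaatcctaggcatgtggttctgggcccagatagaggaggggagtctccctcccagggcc
Rspo1: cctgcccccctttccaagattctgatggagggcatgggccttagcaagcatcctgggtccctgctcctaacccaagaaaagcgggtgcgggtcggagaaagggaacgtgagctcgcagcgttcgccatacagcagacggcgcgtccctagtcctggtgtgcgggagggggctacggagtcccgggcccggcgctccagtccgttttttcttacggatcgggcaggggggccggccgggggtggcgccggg

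On either strand that core stood in the windows of Lrrn4, Gpm6a and Upk3b and in 12.6% of all 32851 windows of the same length. It was not in that of Rspo1, although Rspo1 also varied with Lrrn4, nor in those of Bnc1, of the other Gpm6a entry or of Muc16. The forkhead core TGTTTAC stood in 3.17% of all windows and the site GCGGGGGCG, shared by Wt1 and Egr proteins, in 2.57%, and neither was in any of the windows of Lrrn4, Bnc1, Gpm6a, Upk3b, Muc16 or Rspo1. None of the 3 motifs contains another. A match is a description of the letters and not evidence of binding.

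Markers of adipocytes and of cardiac muscle were also high on control 1 and mutant 2. The mean of 6 adipocyte markers was 9.21, 6.75 and 7.34 in controls and 7.32, 8.23 and 7.10 in mutants. The mean of 6 markers of cardiac muscle, which also sheathes the pulmonary veins, was 11.94, 9.5 and 10.17 against 10.61, 11.69 and 9.02. Control 1 and mutant 2 were the pair of highest arrays for all 6 markers of either list and for 3 members (Wt1, Lrrn4 and Gpm6a), as for 10.3% of all genes. They were that pair for 3 of the 9 genes of the narrow list. Upk3b was not 1 of these, as its mutant 1 (6.48) lay above its mutant 2 (6.25). No marker of these lists passed, and their part in the values of the mesothelial genes was not tested. Msln did not share that order, since mutant 2 was among its lowest arrays.

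**Figure D3:**
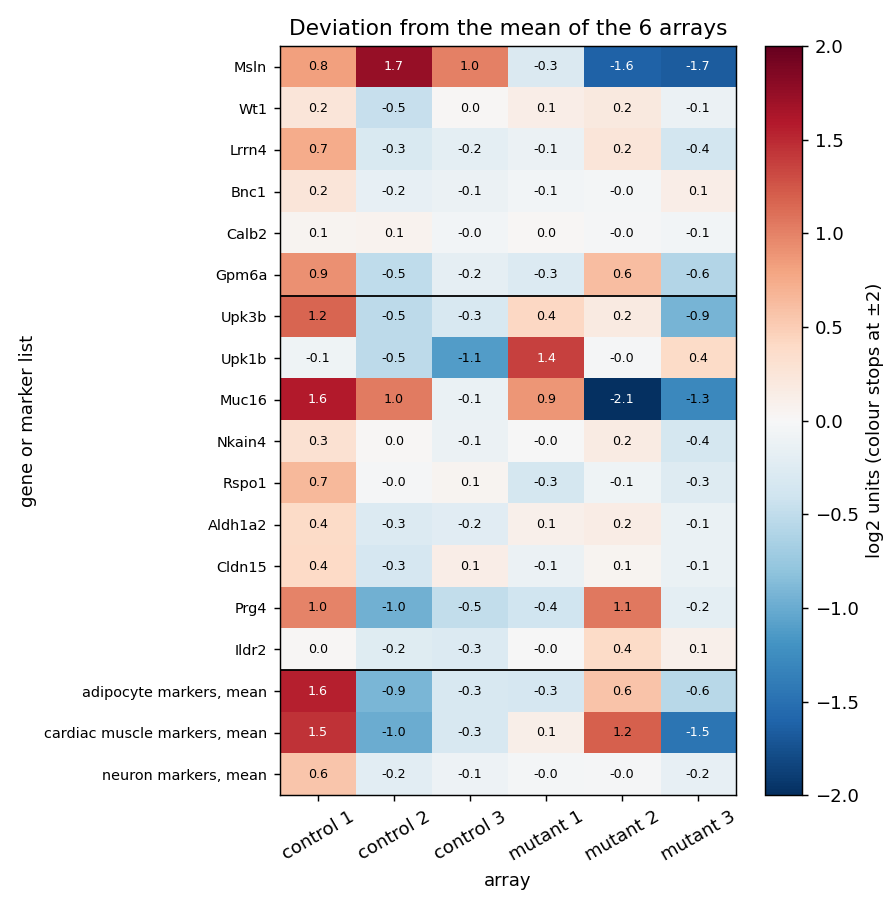
Deviation of each gene, or of the mean of a marker list, from its own mean over the 6 arrays, in log2 units (red above, blue below), for the 6 members (top), the narrow mesothelial list (middle) and 3 marker lists (bottom). The row of Msln splits controls from mutants, whereas Lrrn4, Gpm6a and Prg4 are high in control 1 and mutant 2, as are adipocyte and cardiac muscle markers.

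Of the 9 other mesothelial genes in the narrow list, none passed and 1 had an unadjusted p under 0.05, as did 10.1% of all genes. In this list 4 genes were above 0 and 5 below, with a median log2 difference of -0.14. The median was 0.29 without control 1 and 0.16 without mutant 3. Upk3b, a uroplakin that marks adult mesothelium, read 7.23, 5.55 and 5.75 in controls and 6.48, 6.25 and 5.14 in mutants. The groups overlapped and control 1 was the highest array (difference -0.22, SE 0.533, interval -1.50 to 1.06, adjusted p = 0.944). Rspo1, a secreted enhancer of Wnt signalling, read 7.44, 6.77 and 6.84 against 6.44, 6.70 and 6.53. Its mutants lay below its controls by a small margin (difference -0.46, SE 0.192, adjusted p = 0.499; -0.25 without control 1). Upk1b, a tetraspanin uroplakin of mesothelium and urothelium, went the other way, with 8.45, 8.01 and 7.42 in controls and 9.91, 8.52 and 8.92 in mutants (difference 1.16, SE 0.407, adjusted p = 0.429; 0.76 without mutant 1). Its mutants lay above all its controls, as did those of 9.33% of all genes. Upk1b and Muc16, the highest and lowest of this list, did not vary like Lrrn4 over the 6 arrays (Pearson correlations of 0.01 and 0.24). With each other they correlated at 0.04, and at 0.99 once each group's mean was taken off. Which cells carried them was not tested, and the same holds for Msln and the other genes of the list. None of these differences is therefore read as that of mesothelium. Ildr2, an immunoglobulin-like receptor, stood at 0.32, and Prg4, the lubricant lubricin, at 0.31 with an interval of -1.11 to 1.73. Nkain4 (-0.14), the tight junction gene Cldn15 (-0.14) and Aldh1a2 (0.07), which makes retinoic acid, differed by less than their standard errors.

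Of 15 genes that mesothelium shares with epithelia or stroma, none passed either, 10 were above 0 and 5 below, the median was 0.05, and 5 had an unadjusted p under 0.05, as did 10.1% of all genes. The keratin genes Krt7 (log2 difference 0.40), Krt8 (0.32), Krt18 (0.32) and Krt19 (0.32), which airway epithelium also expresses, were each above 0 with overlapping groups. Pdpn, a mucin-like protein of mesothelium and alveolar type 1 cells, had the highest difference above 0 (0.57, adjusted p = 0.436). Slpi, a secreted protease inhibitor of airway secretions, had the lowest and the largest in size, with 8.39, 10.73 and 9.22 in controls and 7.95, 8.03 and 8.04 in mutants (difference -1.44, SE 0.541, adjusted p = 0.454). Its mutants lay below its controls and close together, and control 2 stood far above the other controls. Sulf1, a sulfatase of heparan sulfate, stood at -0.56.

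**Figure D4:**
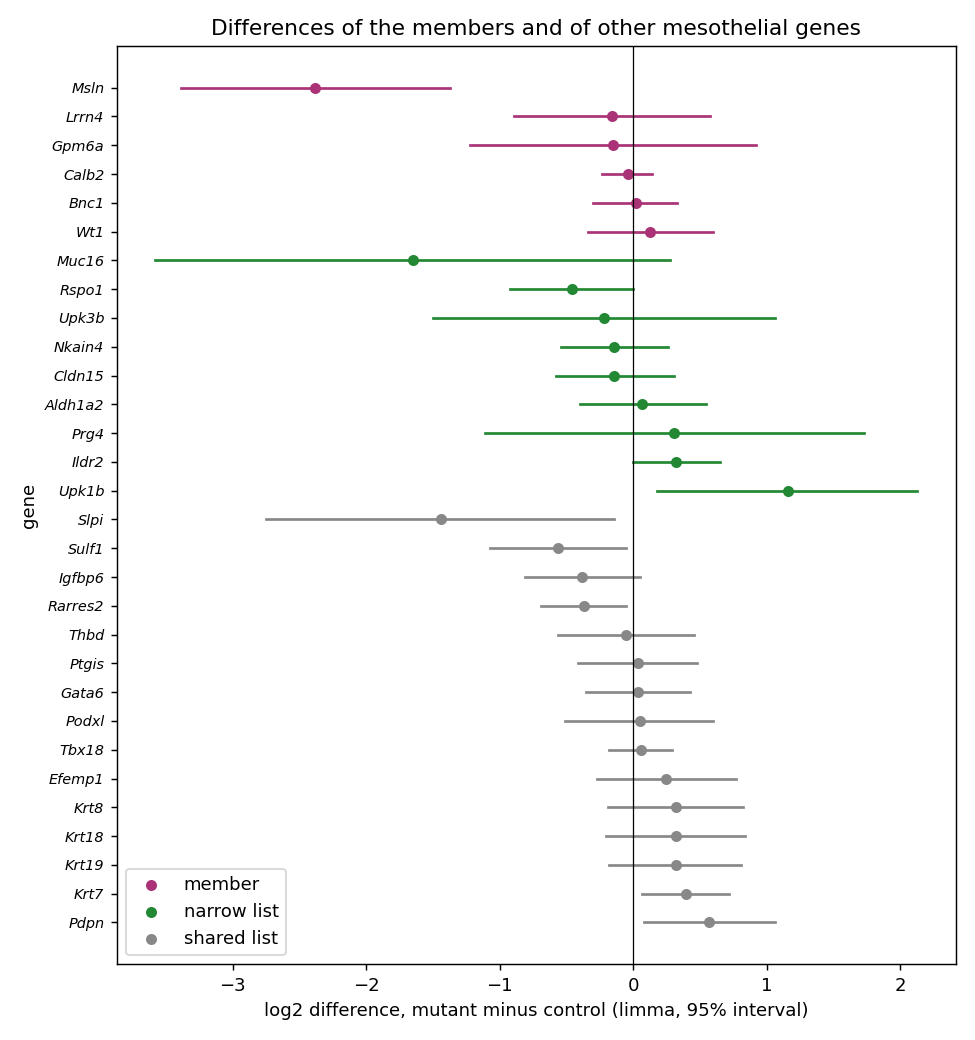
Log2 difference, mutant minus control, with limma's 95% interval (lines) for the 6 members, the narrow mesothelial list and the list shared with epithelia or stroma. The interval of Msln runs from -3.39 to -1.37, and those of the other 5 members all span 0.

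Muc16, the mucin that binds mesothelin, read 9.92, 9.37 and 8.20 in controls and 9.22, 6.27 and 7.05 in mutants. Mutants 2 and 3 lay below every control and mutant 1 among the controls. Its log2 difference was -1.65 (SE 0.803, interval -3.58 to 0.28, adjusted p = 0.569), the lowest in the narrow list on all arrays. It became -2.50 without mutant 1, -1.03 without mutant 2 and -0.65 without control 1 and mutant 2. Its Pearson correlation with Msln over the 6 arrays was 0.80, and 0.71 once each group's mean was taken off. Both genes had mutant 1 as their highest mutant. None of the 10 genes of mesothelin's family, partner and processing list passed, and the list's median was -0.03.

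The relatives of Msln gave overlapping groups. Mslnl, the neighbouring mesothelin-like gene, averaged 4.67 in controls and 4.80 in mutants (difference 0.13). The inner ear relatives Strc (0.02) and Otoa (-0.04) differed by less than their standard errors. Furin, whose product cuts the mesothelin precursor, stood at -0.02 (interval -0.45 to 0.41). Of the subunits that attach GPI anchors, Pigu (0.27), Pigt (0.01), Gpaa1 (-0.10), Pigk (-0.19) and Pigs (-0.29) differed by small amounts, of which Pigk and Pigs had mutants below all controls and Pigu above; of all genes, 5.64% had every mutant below every control and 9.33% every mutant above. The 4 protein-coding neighbours on either side of Msln in the order of GRCm38.p6 had differences between -0.24 (Ccdc78) and 0.16 (Rpusd1), and none of their adjusted p values was below 0.704.

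Relatives and partners of the other members showed little. Of 11 measured genes none passed, and the median was -0.01. S100g, which encodes a small vitamin D-dependent calcium-binding protein, stood highest, with 10.14, 9.87 and 10.23 in controls and 11.53, 12.0 and 11.23 in mutants. Its groups were far apart, and the difference of 1.51 (SE 0.208) gave an adjusted p of 0.0626. Calb1, the closest relative of Calb2 in the list, stood at -0.01, Gpm6b, the sister gene of Gpm6a, at -0.08, and Lrrn4cl at -0.14. Pawr, a partner that binds the Wt1 protein, was at 0.39, Lrrn3 at -0.35 and Bnc2, the paralogue of Bnc1, at -0.24.

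Of 9 measured genes known as Wt1 targets, none passed and the median was 0.02. Vdr, the vitamin D receptor gene, read 7.47, 7.92 and 7.58 in controls and 6.85, 6.64 and 6.85 in mutants. Its mutants lay below its controls (difference -0.88, SE 0.138, adjusted p = 0.0904). Itga4, an integrin chain that lymphocytes also carry, had the lowest difference (-1.09, adjusted p = 0.589), with control 1 (7.07) below mutant 2 (7.97). Spry1 and Snai2 stood highest, both at 0.19, and Podxl, a sialomucin of podocytes and mesothelium, stood at 0.05.

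Genes whose pattern over the 6 arrays was most like that of Msln were sought among 1010 other genes whose SD over the arrays reached 0.5 log2 units. That limit left out Wt1, Lrrn4, Bnc1, Calb2, Rspo1, Nkain4, Aldh1a2, Cldn15 and Ildr2, so the ranking could not include them. The highest Pearson correlations with Msln were those of Tacr1 (0.979), the substance P receptor, Capn13 (0.975), a calpain protease, A2ml1 (0.961), a protease inhibitor, Vdr (0.950) and Mfge8 (0.945), a secreted bridging glycoprotein. All 5 had mutants below all controls, as did 5.64% of all genes, and for all 5 control 2 was the highest array, as for Msln. Both traits come largely from picking genes for their likeness to Msln. Capn13 fell (log2 difference -1.86, adjusted p = 0.0226), whereas Tacr1 (-2.66, adjusted p = 0.0519), A2ml1 (-2.47), Mfge8 (-1.35) and Vdr, 1 of the Wt1 targets above, did not pass. After taking off each group's mean, the 5 most like Msln were Muc13 (0.955), a transmembrane mucin, Capn13 (0.929), Tmc5 (0.926), Galnt6 (0.912), an enzyme that starts mucin-type sugar chains, and Stoml3 (0.909). These are descriptions of 6 arrays and were picked for likeness.

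Marker lists of other cell types were set beside these values. Of 8 club cell markers all had differences at or above 0, the median was 0.20 and Upk3a rose (log2 difference 1.24, adjusted p = 0.0264). Basal and squamous markers, which share Bnc1 with mesothelium, had a median of 0.13 over 7 genes. Their mean per array was 6.90, 6.32 and 5.85 in the controls and 7.08, 6.13 and 6.64 in the mutants. Neuron markers, which could carry Calb2 and Gpm6a, had a median of -0.14 over 9 genes. Their array mean was 6.28 in control 1 and between 5.51 and 5.70 on the other 5 arrays, and control 1 was the highest for 8 of the 9. Alveolar type 1 markers had a median of 0.26 over 6 genes, fibroblast markers -0.13 over 7 and smooth muscle markers 0.03 over 6. The neuron, basal, fibroblast and smooth muscle medians each changed sign in at least 1 setting that left out a single array. B and plasma cell markers had a median of -1.93 over 5 genes, and their mean per array was 6.89, 10.24 and 10.06 in the controls against 6.17, 8.70 and 6.51 in the mutants. The median of these markers was -2.99 without control 1, -2.90 without mutant 2, -3.96 without both and 0.19 without controls 2 and 3. For these genes control 1 lay near mutants 1 and 3, and mutant 2 lay between them and controls 2 and 3. For Msln control 1 (9.97) was the lowest control, with control 3 at 10.15, control 2 at 10.89 and the mutants at 7.48 to 8.85. No member of these lists except Upk3a passed, and their part in the values of Msln and the mesothelial genes was not tested.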

How the data were processed

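The deposited values are log2 expression values of 35556 probe sets on 6 mouse arrays, and RMA, oligo and limma are named, without versions, in the submitters' processing notes. RMA corrects background, normalises the arrays and summarises probes. The sources used here give neither the genome build nor whether all arrays were normalised together. No scan date or detection call was used, so no batch was tested. A probe set named 1 gene in 21789 rows, several in 1621 and none in 12146.

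Mutants were compared with controls in limma 3.58.1 (R 4.3.3; lmFit, eBayes, genotype as the only term, two-sided, no filter), with p-values adjusted by Benjamini and Hochberg over 19938 genes and a threshold of 0.05. Standard errors and intervals are limma's moderated ones. Differences are mutant minus control, and a fold is 2 to the power of that difference. The number of arrays limits precision, and p-values measure the spread between samples, which may be partly technical. An exact permutation test of 3 against 3 arrays cannot go below p = 0.1, and none is given for Msln, which was chosen for its difference. Lists were counted, not tested. Alternatives were repeated quantile normalisation, median centring, a filter on low means, averaging all rows of a gene, array weights, an intensity trend, a block for the replicate number, robust eBayes, and leaving out single arrays or either of 2 pairs. The members, lists and left-out pairs of arrays were chosen with earlier results of these data known. Named genes were the members, the mesothelin family list, the pair of highest and the pair of lowest genes of each other mesothelial or related list, those that passed, and the 5 most like Msln, leaving out predicted transcripts, small RNAs and olfactory receptors. Further list genes were named for their role after their values were seen. Some genes of the lists are not reported here.

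On simulated data for this comparison with 19938 genes, limma called 87% of 100 genes given a 2-fold difference, 100% of 100 given an 8-fold one, and 9 unchanged genes. The simulation drew each gene independently at its moderated spread, for genes picked at random and without effects shared by an array. Its shares are therefore not the power for Msln or the other members on the real arrays. Tables and figures were made with pandas 2.3.3 and matplotlib 3.10.9 (Python 3.11.15).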

Additional observations from a re-analysis of the deposited data

How the results depend on the processing

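The difference of Msln stayed below 0 in all 16 alternatives. That of Msln minus the other 5 members did so in the 15 that kept all 6 genes (-2.81 to -1.55). The highest mutant was under the lowest control for Msln (8.85 and 9.97) and for Msln minus the other 5 (3.66 and 4.27). Leaving out, weighting or blocking arrays could therefore not turn either sign. As Msln was also chosen for its lower values, the kept sign in those settings is no separate evidence. Leaving out the lowest 40% of genes removed Wt1, Lrrn4, Bnc1 and Calb2, so values of the set could not be given there. With array weights 291 genes passed and Msln with them (-2.42, adjusted p = 0.0405), and with an intensity trend 82 passed. Leaving out each array in turn gave counts from 9 to 388. Without controls 2 and 3, 0 genes passed limma's adjusted test (1542 at an unadjusted p under 0.05), the median of the 6 members was -0.53, Wt1 stood at -0.18 and Bnc1 at -0.24. Without control 1 and mutant 2, 963 passed (320 higher, 643 lower), Lrrn4 stood at 0.01 and Upk3b at 0.16. Repeated quantile normalisation put Bnc1 at -0.005. Leaving out each array in turn turned the sign of uncalled genes: Lrrn4 ran from -0.35 to 0.18, Gpm6a from -0.50 to 0.27, Upk3b from -0.53 to 0.31, Wt1 from -0.07 to 0.29 and Bnc1 from -0.06 to 0.14, and the median of the 6 members from -0.21 to 0.16. The causes were not tested.

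The labels give both groups the numbers 1 to 3. Deviations of same-numbered arrays correlated at 0.136, -0.091 and -0.04, so the numbers were not taken to pair the arrays. With the replicate number as a block, 0 genes passed limma's adjusted test (1945 at an unadjusted p under 0.05) and Msln had an adjusted p of 0.357.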
